A study of Mus musculus with 14 samples.

Results

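Hepatocyte-rich and hepatocyte-poor regions were compared within 2 wild-type C57BL/6 mouse fetal livers, 1 at embryonic day 13.5 (E13.5) and 1 at E14.5. Gene expression had been measured with 10x Genomics Visium, in which probes for messenger RNA are captured on a grid of spots under a formalin-fixed, paraffin-embedded tissue section. A spot is a small region that can hold several cells of different types, and each molecule read from it is counted once as a unique molecular identifier (UMI). Spots were selected on their own measured values. For every in-tissue spot with at least 1000 detected genes, the UMIs of Alb, Afp, Apoa1, Apoa2, Ttr, Fgb, Fga, Ahsg, Serpina1a and Apob were divided by all UMIs of the spot. The 25% of spots with the highest share within a section were called hepatocyte-rich and the 25% with the lowest share hepatocyte-poor. This gave 335 rich and 335 poor spots, 122 of each at E13.5 and 213 of each at E14.5. These 670 spots were drawn from 1345 passing spots in the purchased livers and 15985 passing spots in all 14 sections of the series.

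The purchased livers carry no engineered allele according to the labels, and each stage is represented by 1 section of 1 embryo. They therefore have no replicate, and no p-value was computed from them. The same classes were formed in 4 E14.5 fetal livers of a C1qa cross, 1 section each: wild type 2 and C1qa knockout 2 were littermates, and so were wild type 4 and knockout 4, with C1qa-heterozygous mothers. The labels give no cell type to which the knockout is limited. Since sections of the cross hold other tissues of the embryo as well, liver spots were first taken as those with a 10-gene share of at least 0.5%, and the top and bottom 25% were taken among them. This gave 547 rich and 547 poor spots in wild type 2, 60 and 60 in wild type 4, 518 and 518 in knockout 2, and 91 and 91 in knockout 4. C1qa was detected with 510 UMIs in rich and 371 in poor spots of wild type 2, with 110 and 118 in wild type 4, with 0 in both classes of knockout 2, and with 1 and 0 in knockout 4. A count of 0 allows up to 3 counts.

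In the mid-gestation mouse, the liver is the main organ of blood formation. Hepatoblasts and young hepatocytes form cords between sinusoids and secrete albumin, alpha-fetoprotein, apolipoproteins, protease inhibitors, clotting factors and complement into the plasma. Around and between them sit erythroblasts clustered on macrophages, myeloid cells, megakaryocytes, endothelium and stellate cells, and a mesothelium covers the organ. Many plasma protein genes are driven by liver-enriched factors such as HNF1, HNF4 and C/EBP proteins.

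The 10 genes took 2.82% of the summed UMIs of rich spots and 1.32% of those of poor spots at E13.5, and 4.12% and 2.08% at E14.5. The contrast was thus one of more against less hepatocyte RNA in the same liver, not of hepatocytes against their absence. At the boundaries, the lowest rich spot had a share of 2.291% and the highest spot outside the class 2.289% at E13.5, and 3.519% and 3.517% at E14.5. The highest poor spot had 1.551% and the next spot 1.556% at E13.5, and 2.373% and 2.374% at E14.5. In the cross, the summed share was 13.5% against 6.97% in wild type 2, 2.20% against 0.960% in wild type 4, 6.93% against 3.34% in knockout 2, and 1.89% against 0.970% in knockout 4. The poor spots of wild type 2 thus held a larger share than the rich spots of any other liver, the nearest being knockout 2.

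All 10 selecting genes were higher in rich spots, as the selection fixed. Levels are given in CPM, the UMIs of a gene per 1000000 UMIs of the class, with the 10 selecting genes left out of the total. Albumin (Alb), the main plasma protein, stood at 14361 against 6134 CPM at E13.5 and at 21508 against 10229.7 CPM at E14.5. Fold differences ran from 1.54 for Apob to 2.75 for Ahsg at E13.5 and from 1.55 to 2.74 at E14.5. When the spots were instead ordered by the other 7 genes, with Alb, Afp and Apoa1 left out, Alb was still 2.26-fold (2.23 to 2.28) higher at E13.5 and 2.05-fold (2.03 to 2.06) at E14.5, with 95% intervals in brackets. Afp, the fetal albumin relative, was then 1.81-fold (1.79 to 1.84) and 1.69-fold (1.66 to 1.71) higher. Alb and Afp thus moved with the other 7 genes across spots, and the label of the classes was kept. All of these are selecting genes, so the check does not test the label independently of the rule.

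Spots of a class tended to lie next to each other, and poor spots were more often at the rim of the section. Of the adjacent passing spots of a rich spot, 62.7% were rich at E13.5 and 65.7% at E14.5, and for poor spots 53.6% and 67.4% were poor. Spots lacking at least 1 of 6 in-tissue neighbours made up 33.6% of rich and 46.7% of poor spots at E13.5 (41 and 57 spots), and 17.4% and 42.3% at E14.5 (37 and 90 spots). Over all passing spots the share was 35.6% at E13.5 and 30.7% at E14.5, so that rich spots lay at the rim less often than all spots at E14.5 and about as often at E13.5. The E14.5 section consisted of a main piece of 674 passing spots with 203 rich and 152 poor spots, and a second piece of 167 with 6 rich and 57 poor spots. The share and the depth also moved together, with a Spearman rho across spots of 0.225 at E13.5 and 0.426 at E14.5, given as a description since spots share 1 library. Median UMIs per spot were 81907 in rich and 64875 in poor spots at E13.5, and 77512 and 39008 at E14.5. Since every gene is expressed relative to the total, a rich spot with a higher level may hold more hepatocytes, more RNA per hepatocyte or less of other RNA, which cannot be told apart.

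**Figure D1:**
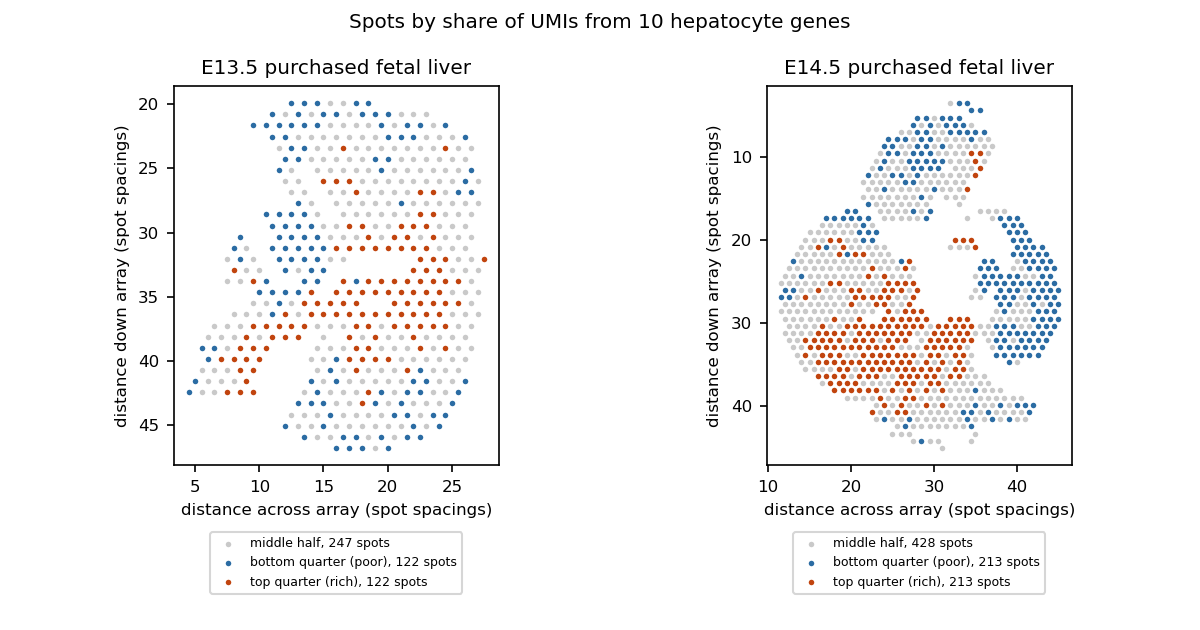
Passing spots of the E13.5 and E14.5 purchased fetal livers at their array positions, in spot spacings, coloured as hepatocyte-rich, hepatocyte-poor or between. Spots of a class form patches, and 46.7% of E13.5 and 42.3% of E14.5 poor spots sit at an edge, against 33.6% and 17.4% of rich spots and 35.6% and 30.7% of all spots.

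Class totals were 10177754 UMIs for rich and 8446166 for poor spots at E13.5, and 16964007 and 9342653 at E14.5. In the cross, the median UMIs per spot ranged from 4915.5 (rich, knockout 2) to 72223 (rich, wild type 4), so the 2 litters differed widely in depth. RNA was also read beyond the tissue: 26.7% of all UMIs at E13.5 and 28.4% at E14.5 fell on off-tissue spots, where the 10 genes took 1.81% and 2.74% of UMIs against 2.01% and 3.15% in tissue. Whether RNA that moved between spots lowered the fold differences was not tested.

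For all other genes, UMIs were summed over each class, and levels are given as CPM. A gene was called when it differed at least 1.5-fold in the same direction in both purchased livers, with at least 100 UMIs over both classes in each. Of 9641 genes tested, 120 were called higher in rich spots (1.24%) and 17 lower (0.176%). At E13.5 alone, 234 genes passed the fold higher and 331 lower, and at E14.5 208 and 42. The shared higher genes were thus 51.3% of those at E13.5 and 57.7% of those at E14.5, whereas the shared lower genes were 5.14% and 40.5%. Of the 120 higher genes, 119 had 95% intervals clear of 1 in both livers, as had all 17 lower genes. These intervals are exact binomial ones and cover counting error only, not differences between embryos. The median gene was slightly lower in rich spots, at log2 -0.09 at E13.5 and -0.06 at E14.5. Scaled per spot instead of per UMI, so that the greater depth of rich spots entered, 488 genes were called higher and 0 lower.

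The cross livers were then used as sections that had no part in these calls. Counts of rich and poor spots were compared within section by edgeR's quasi-likelihood test, with the section as a block (n = 4 sections, 11908 genes tested, Benjamini-Hochberg adjusted p under 0.05). The 10 selecting genes were left out, and the p-values refer to the spread between the 4 sections. Over all genes 436 were higher in rich spots (3.66%) and 427 lower (3.59%). With no scaling factor beyond the total, 224 were higher and 975 lower, with the median gene at log2 -0.13. Without the block, which sets each section's rich spots against its own poor spots, 0 genes passed, with 395 at an unadjusted p under 0.05. Of the 120 genes higher in the purchased livers, 116 were tested, all 116 had a positive fitted change, 98 were higher in each of the 4 sections, and 94 passed the test. Of the 17 lower genes, 15 were tested, 13 had a negative fitted change and 6 passed. With the liver minimum raised to a share of 1%, none of the 15 lower genes and 92 of the 116 higher genes passed. Since the cross sections include other tissue, the test was repeated on inner liver spots, whose 6 neighbours were all liver spots, a choice made after the data had been seen. There 169 of 10800 genes were higher (1.56%) and 0 lower (0%), with 949 genes at an unadjusted p under 0.05. Of the 116 genes, 76 passed higher among inner spots and 115 had a positive change, while none of the 15 lower genes passed and 7 had a negative change. In edgeR's test of whether this contrast differed by genotype, 0 genes passed, with 95 at an unadjusted p under 0.05. With 2 livers per genotype and no litter term, differences between the litters stayed in the residual, so this count does not show that the genotypes were alike.

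**Figure D2:**
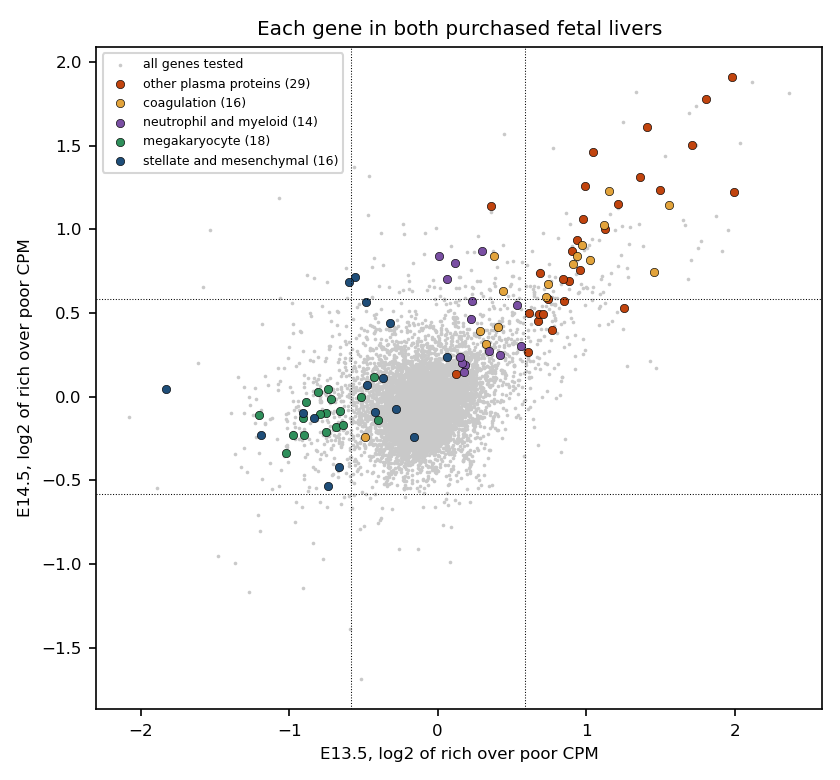
Log2 fold change, hepatocyte-rich over hepatocyte-poor, of the 9641 tested genes at E13.5 (horizontal) and E14.5 (vertical). Colours mark members of the other plasma protein, coagulation, neutrophil and myeloid, megakaryocyte, and stellate and mesenchymal lists, whether called or not. Dotted lines mark 1.5-fold. The called higher genes extend up to 2.37 at E13.5 (Mat1a) and 1.91 at E14.5 (Serpina1e), and the 10 genes past the fold in opposite directions all lie at lower E13.5 and higher E14.5.

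The genes with the steepest gradient encode secreted protease inhibitors, carriers and metabolic enzymes of the hepatocyte. Serpina1e, an alpha-1-antitrypsin gene, stood at 275 against 69.5 CPM at E13.5 and 539 against 143 CPM at E14.5, a difference of 3.95-fold (95% interval 3.61 to 4.33) at E13.5 and 3.76-fold (95% interval 3.55 to 3.99) at E14.5. In the cross it stood at 2549.8 against 761 CPM in wild type 2, 128 against 40.7 in wild type 4, 1293 against 326 in knockout 2 and 124 against 48.9 in knockout 4. All 4 sections were thus higher in rich spots, and the fitted log2 change was 1.87 ± 0.107 (SE, n = 4, adjusted p = 2.78e-05). Arginase (Arg1), the last enzyme of the urea cycle, stood at 18.7 against 4.32 CPM at E13.5 and 27.4 against 7.43 CPM at E14.5, that is 4.33-fold (95% interval 3.02 to 6.37) at E13.5 and 3.69-fold (95% interval 2.85 to 4.83) at E14.5. Its cross values were 271 against 116 CPM in wild type 2, 13.3 against 5.46 in wild type 4, 149 against 28.4 in knockout 2 and 23.4 against 14.0 in knockout 4, again higher in rich spots of each section, with log2 1.66 ± 0.208 (SE, n = 4, adjusted p = 0.00117). Mat1a, which makes the methyl donor S-adenosylmethionine, stood at 15.5 against 3.00 CPM at E13.5 and 36.2 against 10.3 CPM at E14.5. Its difference was 5.16-fold (95% interval 3.36 to 8.22) at E13.5 and 3.52-fold (95% interval 2.83 to 4.43) at E14.5, and log2 1.18 ± 0.161 (SE, n = 4, adjusted p = 0.00199) in the cross. The other genes among the 15 with the largest smaller fold were the protease inhibitors Pzp, A2m, Serpina1c, Serpina1d and Itih3, the cytochrome Cyp2d26, the flavin monooxygenase Fmo1, the kininogen gene Kng2, the interleukin-1 receptor antagonist Il1rn, the glutamine transporter Slc38a3, and the plasma proteins Apcs and Apoh. The Serpina1 genes and the kininogen genes are near-identical copies whose probes may be shared, so their separate values are uncertain. Serpina1a was 1 of the selecting genes. If its probes are shared, the selection itself would raise the other Serpina1 genes, Serpina1e among them, which was not tested.

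**Figure D3:**
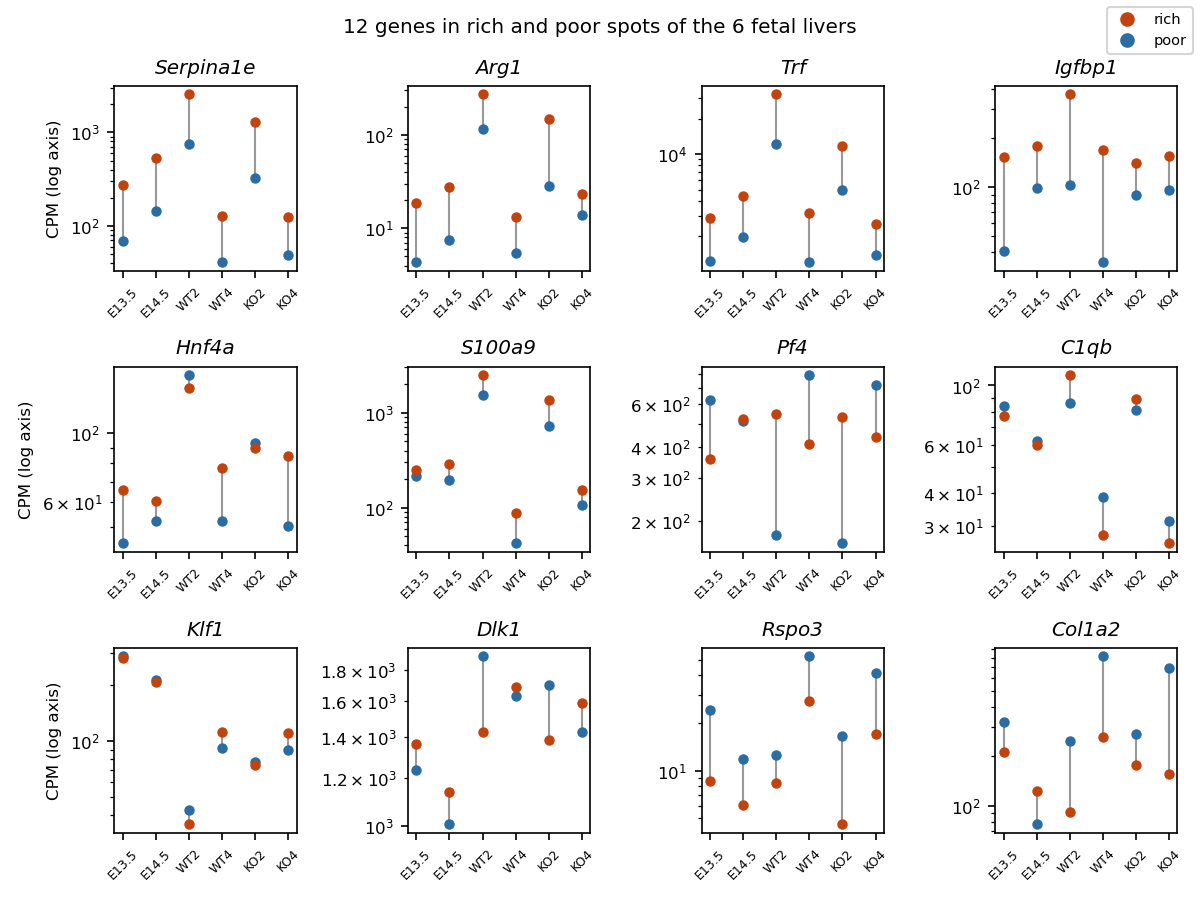
Levels of selected genes in hepatocyte-rich and hepatocyte-poor spots of the 2 purchased and 4 cross livers, in CPM on a log axis, 1 point per class and section. The genes are Serpina1e, Arg1, Trf, Igfbp1, Hnf4a, S100a9, Pf4, C1qb, Klf1, Dlk1, Rspo3 and Col1a2, not all of which were called. For Serpina1e the rich point lies above the poor point in all 6 livers, from 128 against 40.7 CPM in wild type 4 to 2549.8 against 761 CPM in wild type 2.

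The promoters of these leading genes are shown because several carry letters of the HNF1 recognition sequence. RefSeq (GRCm38.p6) gave 12 promoter windows for 10 of the 15 genes, each from 250 bases before to 50 bases after the start. The letters GTTAAT, searched on both strands, stood in 5 of 12 windows (41.7%), those of Pzp, Serpina1c, Serpina1d, Serpina1e and Cyp2d26, whereas 7.10% of all 32851 RefSeq windows held them. HNF4-type letters (CAAAGTCCA), GATA-type letters (AGATAA) and CACCC-type letters (CCACACCC) stood in none of the 12, and in 0.475%, 11.2% and 3.56% of all windows. The 3 Serpina1 windows are not independent, since Serpina1e shared runs of up to 70 bases with Serpina1c and 115 with Serpina1d. The windows of 13 of the 15 genes with the largest falls held GTTAAT in 2 of 23 cases (8.70%), both of Gimd1, HNF4-type letters in 2 (8.70%, also Gimd1) and GATA-type letters in 4 (17.4%, of Gimd1, Gja1 and Eml1). The 250 bases before the start follow for 4 genes, all on the minus strand and written 5′ to 3′ along the gene, with GTTAAT or its reverse complement in capitals: Serpina1e at chr12:103956898-103957147, Serpina1c at chr12:103904951-103905200, Pzp at chr6:128526721-128526970 and Cyp2d26 at chr15:82794246-82794495. The capitals begin 78 bases before the start in Serpina1e, 27 in Serpina1c, 79 and 199 in Pzp and 90 in Cyp2d26. Such a match is a description of the letters and not a shown binding site.
Serpina1e: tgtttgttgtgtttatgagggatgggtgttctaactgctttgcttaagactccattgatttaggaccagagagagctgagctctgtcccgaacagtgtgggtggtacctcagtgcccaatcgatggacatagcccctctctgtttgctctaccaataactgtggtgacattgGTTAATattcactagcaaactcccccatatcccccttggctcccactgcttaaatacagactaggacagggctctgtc
Serpina1c: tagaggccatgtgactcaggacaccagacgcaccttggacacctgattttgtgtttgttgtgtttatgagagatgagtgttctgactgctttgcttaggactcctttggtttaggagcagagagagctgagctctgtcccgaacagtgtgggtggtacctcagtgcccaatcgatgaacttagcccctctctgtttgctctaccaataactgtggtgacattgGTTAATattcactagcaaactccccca
Pzp: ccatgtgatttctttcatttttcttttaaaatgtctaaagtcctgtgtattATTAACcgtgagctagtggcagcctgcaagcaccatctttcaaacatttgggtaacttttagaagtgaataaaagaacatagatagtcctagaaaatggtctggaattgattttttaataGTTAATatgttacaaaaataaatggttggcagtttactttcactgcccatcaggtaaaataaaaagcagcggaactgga
Cyp2d26: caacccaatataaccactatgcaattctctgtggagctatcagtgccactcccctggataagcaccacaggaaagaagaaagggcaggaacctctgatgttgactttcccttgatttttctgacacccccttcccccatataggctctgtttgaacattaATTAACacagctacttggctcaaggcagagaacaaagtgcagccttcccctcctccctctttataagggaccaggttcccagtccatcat

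Plasma protein genes beyond the selecting 10 formed the clearest group. Of 29 tested, 18 were called higher and none lower, and all 29 were above 0 in both livers. Their median log2 changes were 0.94 at E13.5 and 0.87 at E14.5. In the cross 29 of 35 passed higher and none lower, and among inner liver spots 27 of 33. Over all genes 1.24% were called higher, 3.66% passed higher in the cross and 1.56% among inner liver spots. The called and passing genes include Serpina1b, Serpina1c, Serpina1d and Serpina1e, near copies of the selecting gene Serpina1a. Transferrin (Trf), the iron carrier of plasma, stood at 2884 against 1241 CPM at E13.5 and 4371 against 1968 CPM at E14.5, or 2.32-fold (95% interval 2.27 to 2.38) at E13.5 and 2.22-fold (95% interval 2.19 to 2.26) at E14.5. It stood at 32095 against 12285 CPM in wild type 2, 3148 against 1204 in wild type 4, 11729.6 against 4979 in knockout 2 and 2532 against 1381 in knockout 4, with log2 1.37 ± 0.120 (SE, n = 4, adjusted p = 1.58e-04). Rich spots were higher in every section, also where the plasma genes were scarce. Apolipoprotein H (Apoh) differed by 2.82-fold (95% interval 2.54 to 3.13) at E13.5 and 2.35-fold (95% interval 2.22 to 2.49) at E14.5, and log2 1.51 ± 0.130 (SE, n = 4, adjusted p = 1.47e-04) in the cross. Over 4 classes of 25% of spots each, from the lowest to the highest share, the summed level of the group was higher at each step, 5261, 6663, 7881 and 10291 CPM at E13.5 and 7411, 9138, 10794 and 13940.5 CPM at E14.5.

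Clotting and complement genes moved in the same way. Of 16 coagulation genes, 10 were called higher, with medians of 0.83 at E13.5 and 0.77 at E14.5, and 15 of 17 passed higher in the cross (11 of 17 among inner spots). Fgg, the fibrinogen chain that was not used for selection, stood at 215 against 96.8 CPM at E13.5 and 531 against 226 CPM at E14.5, or 2.22-fold (95% interval 2.05 to 2.41) at E13.5 and 2.35-fold (95% interval 2.24 to 2.47) at E14.5, with log2 1.23 ± 0.0769 (SE, n = 4, adjusted p = 3.52e-05) in the cross. F13b, a subunit of the fibrin-crosslinking factor XIII, was higher by 2.94-fold (95% interval 2.28 to 3.82) at E13.5 and 2.21-fold (95% interval 1.91 to 2.56) at E14.5. F2, which encodes prothrombin, had log2 changes of 0.94 at E13.5, 0.84 at E14.5 and 0.98 ± 0.0890 (SE, n = 4, adjusted p = 1.83e-04) in the cross. Protein S (Pros1) stood outside this pattern with log2 -0.49 at E13.5, -0.24 at E14.5 and -0.001 ± 0.168 (SE, n = 4, adjusted p = 0.999) in the cross. Of 12 complement genes, 8 were called higher, with medians of 0.88 at E13.5 and 0.67 at E14.5, and 12 of 17 passed higher in the cross (7 of 16 among inner spots). C3, the central complement protein, stood at 384 against 201 CPM at E13.5 and 498 against 275 CPM at E14.5, and its cross change was log2 1.00 ± 0.0779 (SE, n = 4, adjusted p = 9.98e-05). The membrane attack genes C8b and Hc reached 2.12-fold (95% interval 1.65 to 2.74) at E13.5 and 1.92-fold (95% interval 1.63 to 2.25) at E14.5 for C8b, and 2.03-fold (95% interval 1.72 to 2.41) at E13.5 and 1.88-fold (95% interval 1.68 to 2.09) at E14.5 for Hc. In the purchased livers C1qb and C1qc, made by macrophages, did not follow these plasma genes. C1qb had log2 -0.12 at E13.5 and -0.06 at E14.5, and C1qc had -0.04 at E13.5 and -0.02 at E14.5. In the cross the C1q+ macrophage list had medians of 0.34 in wild type 2 and 0.39 in knockout 2. They were -0.007 in wild type 4 and -0.08 in knockout 4.

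**Figure D4:**
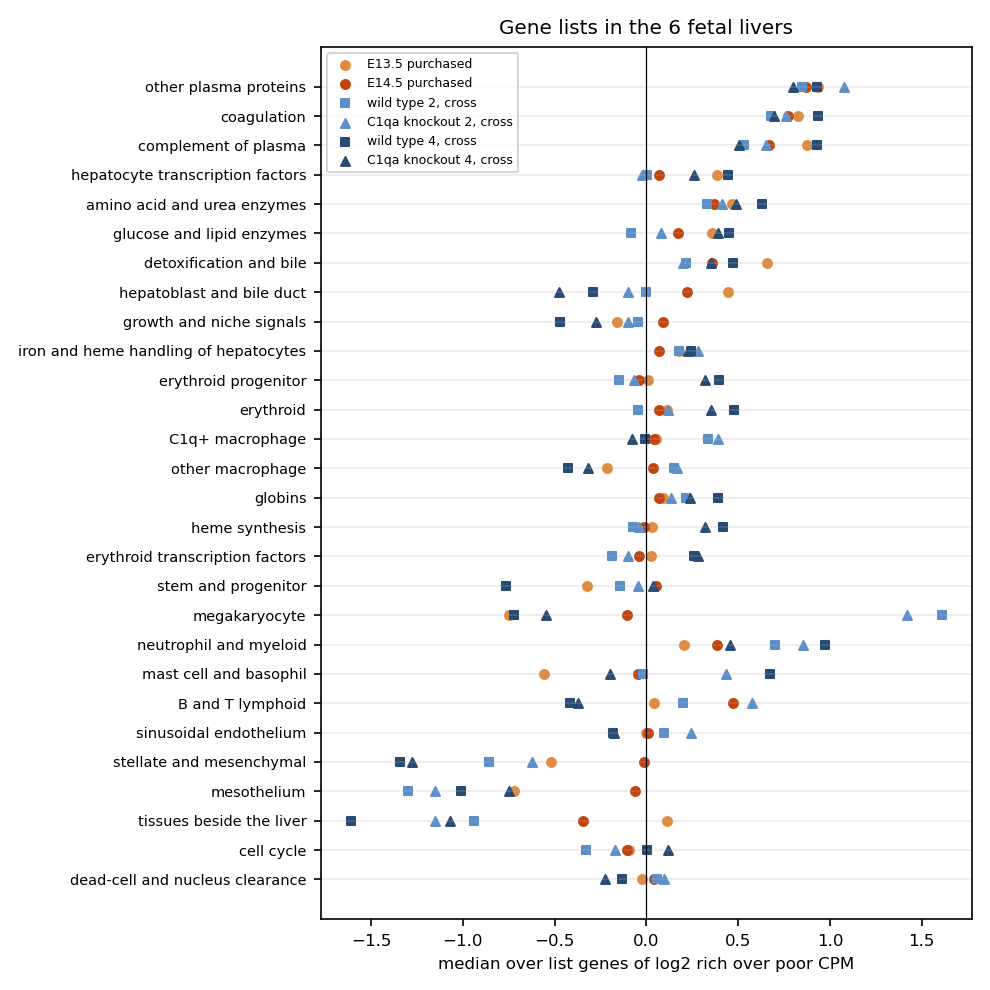
Median log2 fold change, hepatocyte-rich over hepatocyte-poor, of each gene group in the purchased E13.5 and E14.5 livers and in the 4 cross livers. Other plasma proteins, coagulation and complement lie between 0.67 and 0.94 in the purchased livers, erythroid and erythroid progenitor genes lie between -0.04 and 0.11 there, and the megakaryocyte median is -0.75 at E13.5 but 1.61 in wild type 2.

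Metabolic enzymes were more mixed than secreted proteins. Among amino acid and urea enzymes, 4 of 14 were called higher (Arg1, Mat1a, Hpd and Fah), the medians were 0.47 at E13.5 and 0.37 at E14.5, and 9 of 18 passed in the cross. Hpd and Fah, which act in tyrosine breakdown, had log2 1.39 at E13.5 and 0.90 at E14.5 for Hpd, and 0.79 at E13.5 and 0.59 at E14.5 for Fah. The urea cycle gene Cps1 had too few UMIs for a call in the purchased livers but was higher in the cross with log2 2.16 ± 0.224 (SE, n = 4, adjusted p = 4.06e-04). Among glucose and lipid genes, 1 of 23 was called, against 1.24% of all genes called higher. In the cross 8 of 26 passed, among them the gluconeogenic Fbp1 with log2 2.54 ± 0.288 (SE, n = 4, adjusted p = 6.65e-04). Of the fatty acid synthesis genes, Acaca had log2 -0.09 at E13.5 and -0.15 at E14.5 and Fasn had -0.02 at E13.5 and -0.25 at E14.5, and neither passed in the cross. Among detoxification and bile genes, 3 of 11 were called (Cyp2d26, Fmo1 and Gsta3) and 8 of 24 passed in the cross, where the bile acid uptake gene Slc10a1 had log2 2.31 ± 0.223 (SE, n = 4, adjusted p = 2.59e-04). Over all genes 3.66% passed higher in the cross.

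Liver transcription factors differed less than the genes of secreted proteins. Of 16 tested, 2 were called, the fatty-acid-sensing receptor Ppara with 2.16-fold (95% interval 1.56 to 3.05) at E13.5 and 1.54-fold (95% interval 1.19 to 2.01) at E14.5, and the xenobiotic receptor Nr1i2 with 1.65-fold (95% interval 1.22 to 2.24) at E13.5 and 1.51-fold (95% interval 1.17 to 1.96) at E14.5. In the cross Ppara passed with log2 0.72 ± 0.148 (SE, n = 4, adjusted p = 0.0166), and so did Foxa3, Cebpa and Creb3l3, while Nr1i2 stood at log2 0.19 ± 0.227 (SE, n = 4, adjusted p = 0.708). Among inner spots none of 18 passed. Hnf4a, a central factor of hepatocyte identity, stood at 65.6 against 44.3 CPM at E13.5 and 60.5 against 52.1 CPM at E14.5, or 1.48-fold (95% interval 1.30 to 1.69) at E13.5 and 1.16-fold (95% interval 1.04 to 1.30) at E14.5, with log2 0.40 ± 0.140 (SE, n = 4, adjusted p = 0.128) in the cross. The hepatoblast gene Dlk1 had log2 0.14 at E13.5 and 0.18 at E14.5, Gpc3 had 0.24 at E13.5 and 0.25 at E14.5, and none of 8 tested hepatoblast and bile duct genes was called. In the cross, 1 of 13 passed higher (the tight junction gene Cldn1) and 2 lower (Krt7 and Krt19, keratins of bile duct and mesothelium). Over all genes in the cross, 3.66% passed higher and 3.59% lower.

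Genes of growth and niche signals, a list not limited to products of hepatocytes, showed no common direction. Igfbp1, an insulin-like growth factor binding protein of hepatocytes, was the only 1 of 14 called, at 153 against 40.7 CPM at E13.5 and 179 against 98.1 CPM at E14.5. Its cross change was log2 1.53 ± 0.241 (SE, n = 4, adjusted p = 0.00453). Thrombopoietin (Thpo) had log2 0.90 at E13.5 and 0.47 at E14.5 and 0.67 ± 0.177 (SE, n = 4, adjusted p = 0.04998) in the cross, a call that was lost in each alternative fit that tested it except the one with no filter on low counts. Among inner spots its log2 change was 0.50 ± 0.190 (SE, n = 4, adjusted p = 0.407). Kit ligand (Kitl) had log2 -0.10 at E13.5, -0.25 at E14.5 and -0.27 ± 0.219 (SE, n = 4, adjusted p = 0.539) in the cross, and Igf2 0.30 at E13.5, 0.25 at E14.5 and 0.06 ± 0.0946 (SE, n = 4, adjusted p = 0.782) in the cross. In the cross Ptn, Cxcl12 and Igf1 passed lower in rich spots, and none of the 3 did so among inner spots. There 2 of 20 genes passed higher, Igfbp1 and its relative Igfbp2, against 1.56% of all genes. Igfbp2 had log2 1.79 among inner spots (edgeR adjusted p = 0.00888) and did not pass over all liver spots. Among iron and heme handling genes, 1 of 15 was called, Tmprss6, a protease that restrains hepcidin production, with 1.92-fold (95% interval 1.52 to 2.42) at E13.5 and 1.76-fold (95% interval 1.49 to 2.097) at E14.5. Over all genes tested, 1.24% were called higher in the purchased livers, beside the single calls of Igfbp1 and Tmprss6. Hepcidin (Hamp) itself had 3 and 1 UMIs at E13.5 and 27 and 6 at E14.5, too few for a call.

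Genes of red cell formation differed little between the classes in the purchased livers, and the cross livers differed by litter. Erythroid medians were 0.48 in wild type 4 and 0.35 in knockout 4, against -0.04 in wild type 2 and 0.12 in knockout 2. Erythroid progenitor medians were 0.39 in wild type 4 and 0.32 in knockout 4, against -0.15 in wild type 2 and -0.07 in knockout 2. None of 20 erythroid progenitor genes and none of 18 erythroid genes was called, with medians of 0.01 at E13.5 and -0.04 at E14.5 for the progenitor list and 0.11 at E13.5 and 0.07 at E14.5 for the erythroid list. Klf1, a master regulator of erythropoiesis, had log2 -0.03 at E13.5, -0.04 at E14.5 and 0.24 ± 0.106 (SE, n = 4, adjusted p = 0.225) in the cross. Alas2, the first enzyme of erythroid heme synthesis, had 0.19 at E13.5 and 0.14 at E14.5. The adult beta-globin Hbb-bs stood at 137883 against 117720.0 CPM at E13.5 and 147324 against 129452 CPM at E14.5, or 1.17-fold (95% interval 1.17 to 1.17) at E13.5 and 1.14-fold (95% interval 1.14 to 1.14) at E14.5. Hemoglobin genes took 21.4% of UMIs in rich and 18.8% in poor spots at E13.5, and 20.9% and 19.1% at E14.5. Of the 18 erythroid genes, 14 were above 0 in both purchased livers (77.8%), against 16.3% of all genes. In the cross the erythroid median was 0.38, and 5 of 17 genes passed higher, against 3.66% of all genes. None passed among inner spots, where the median was -0.02, or without wild type 4 or knockout 4. The summed erythroid level was 124382 against 82541 CPM in wild type 4, 107916 against 84294 CPM in knockout 4, 196948 against 191588 CPM in wild type 2, and 237330.0 against 214412 CPM in knockout 2. Of 20 C1q+ macrophage genes, 2 were called, Apoe and Selenop, both of which hepatocytes also express. In the cross 8 of 19 passed higher (Slc40a1, Marco, Fcna, Cd5l, Apoe, Il18bp, Ctsb and Selenop), and among inner spots Apoe and Selenop did. Over all genes 1.24% were called higher in the purchased livers. In the cross 3.66% of all genes passed higher, and among inner spots 1.56%. The cross medians of this macrophage list were 0.34 in wild type 2 and 0.39 in knockout 2, against -0.007 in wild type 4 and -0.08 in knockout 4. In the purchased livers its medians were 0.05 at E13.5 and 0.04 at E14.5. Of the 20 genes, 10 were above 0 in both (50%), against 16.3% of all genes. The summed level of the list, with Apoe and Selenop included, was 3399 against 2697 CPM at E13.5 and 3895 against 3189.7 CPM at E14.5. The proliferation genes were below 0 in both livers for 18 of 25, with medians of -0.10 at E13.5 and -0.11 at E14.5, near those of all genes, and none was called or passed. Of all 9641 genes, 4943 were below 0 in both.

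Granule genes of neutrophils and their precursors were mildly higher in rich spots. None of 14 was called at 1.5-fold, but all 14 were above 0 in both purchased livers, against 16.3% of all genes, with medians of 0.21 at E13.5 and 0.39 at E14.5. In the cross 12 of 14 passed higher, against 3.66% of all genes, and among inner spots 8 of 14, against 1.56%. Lipocalin 2 (Lcn2), a granule protein that binds bacterial iron carriers, stood at 20.8 against 16.9 CPM at E13.5 and 25.8 against 14.1 CPM at E14.5, with 1.23-fold (95% interval 0.989 to 1.54) at E13.5 and 1.83-fold (95% interval 1.496 to 2.24) at E14.5. It stood at 185 against 107 CPM in wild type 2, 9.36 against 4.92 in wild type 4, 123 against 49.9 in knockout 2 and 11.7 against 9.70 in knockout 4, or log2 1.08 ± 0.139 (SE, n = 4, adjusted p = 0.00139). The antimicrobial peptide gene Camp had log2 0.12 at E13.5, 0.80 at E14.5 and 1.08 ± 0.0956 (SE, n = 4, adjusted p = 1.59e-04) in the cross, and the elastase gene Elane 0.35 at E13.5, 0.27 at E14.5 and 1.00 ± 0.140 (SE, n = 4, adjusted p = 0.00221) in the cross. The change of Ngp, Camp and Ltf was small at E13.5, at log2 0.01, 0.12 and 0.06, and larger at E14.5, at 0.84, 0.80 and 0.70, a difference between 2 single sections. Lcn2 is also made by hepatocytes under stress, and whether hepatocytes contributed to the group was not tested. The summed neutrophil level was 526 against 315 CPM in wild type 4 and 5910.5 against 3704 CPM in wild type 2.

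Megakaryocyte and platelet genes stood lower in rich spots at E13.5, lay near all genes at E14.5, and differed in direction between the litters of the cross. The median of 18 genes was -0.75 at E13.5 and -0.11 at E14.5, against -0.09 and -0.06 for all genes. Of the 18, 15 were below 0 in both, against 4943 of all 9641 genes, and none was called. The summed level was 995 against 1744 CPM at E13.5 and 1431 against 1529 CPM at E14.5. Platelet glycoprotein V (Gp5), which followed the list in both livers, had log2 -0.98 at E13.5 and -0.23 at E14.5. Platelet factor 4 (Pf4) stood at 358 against 627 CPM at E13.5 and 524 against 515 CPM at E14.5, and the integrin gene Itga2b at 47.3 against 79.1 CPM at E13.5 and 62.3 against 60.2 CPM at E14.5, both among the 3 genes above 0 at E14.5. In the cross none of 19 passed, with a fitted median of 0.45. After thinning each spot to the same depth, 10 of 15 passed higher, against 221 of all 7099 genes. With all in-tissue spots 17 of 20 did, against 385 of all 13108 genes. Pf4 stood at 550.2 against 176 CPM in wild type 2, 412 against 789 in wild type 4, 533 against 162 in knockout 2 and 442 against 721 in knockout 4. The knockout and wild type of litter 2 were thus higher in rich spots, and those of litter 4 lower, with list medians of 1.61 in wild type 2 and 1.42 in knockout 2 against -0.72 in wild type 4 and -0.55 in knockout 4.

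**Figure D5:**
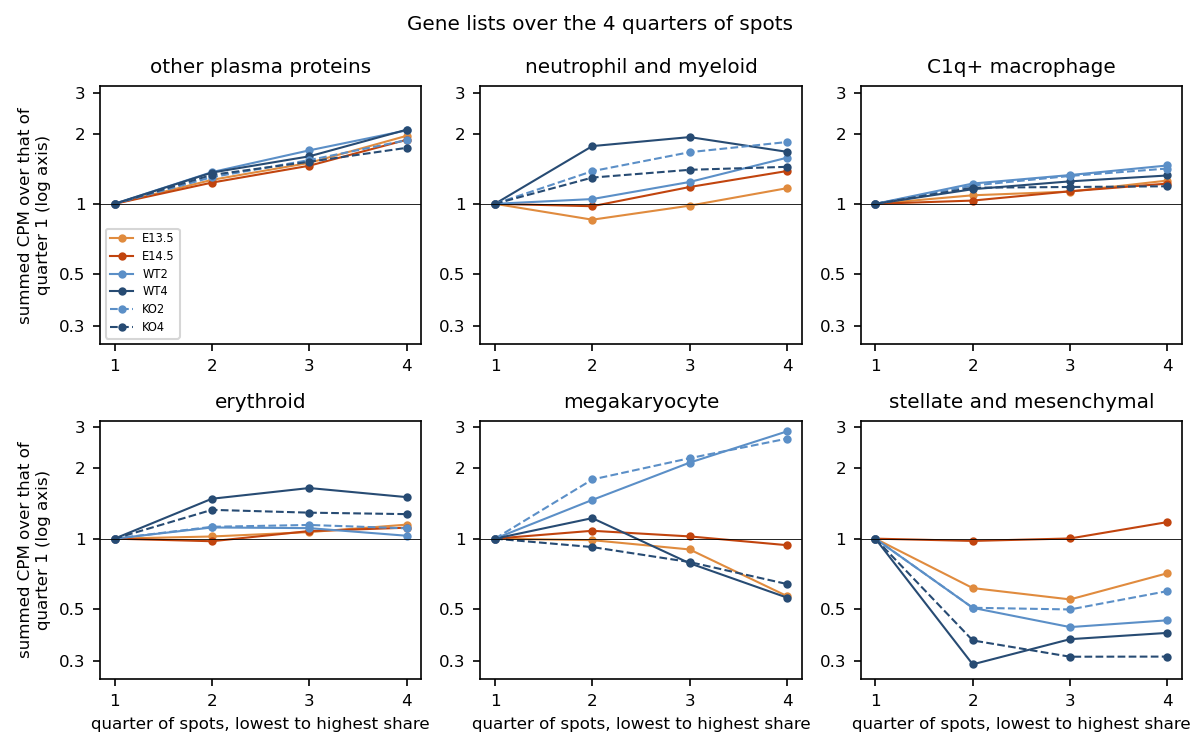
Summed level of 6 gene groups over 4 classes of 25% of spots each, from lowest to highest 10-gene share, in the 2 purchased and 4 cross livers, as CPM relative to the lowest class on a log axis. Other plasma proteins at E13.5 run from 5261 to 10291 CPM, and megakaryocyte genes at E13.5 run from 1754 CPM in the lowest class to 995 CPM in the highest.

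The 17 genes called lower were few and scarce, with 120 to 352 UMIs at E13.5 and 110 to 355 at E14.5 over both classes, and none belonged to a fixed list. Lhx2, a transcription factor of liver stellate cells, stood at 12.1 against 27.8 CPM at E13.5 and 7.38 against 12.9 CPM at E14.5, or 0.436-fold (95% interval 0.347 to 0.546) at E13.5 and 0.572-fold (95% interval 0.440 to 0.744) at E14.5 of the level in poor spots. In the cross it stood at 8.56 against 12.8 CPM in wild type 2, 18.3 against 48.1 in wild type 4, 7.92 against 15.5 in knockout 2 and 18.03 against 24.4 in knockout 4, lower in rich spots of all 4, with log2 -0.73 ± 0.190 (SE, n = 4, adjusted p = 0.0447). Rspo3, a WNT enhancer secreted by venous endothelium and mesenchyme, stood at 8.59 against 24.0 CPM at E13.5 and 6.09 against 11.8 CPM at E14.5. In the cross it stood at 8.33 against 12.6 CPM in wild type 2, 27.6 against 52.4 in wild type 4, 4.59 against 16.5 in knockout 2 and 17.1 against 41.1 in knockout 4, with log2 -0.92 ± 0.184 (SE, n = 4, adjusted p = 0.0150). Foxf1, a mesenchymal transcription factor, had log2 -1.21 at E13.5, -0.71 at E14.5 and -1.05 ± 0.193 (SE, n = 4, adjusted p = 0.00992) in the cross. Gja1, Itga3 and Eml1 were the other 3 that passed in the cross. Among inner liver spots none of these 6 passed, with log2 0.004 ± 0.243 (SE, n = 4, adjusted p = 0.999) for Lhx2 and -0.23 ± 0.221 (SE, n = 4, adjusted p = 0.844) for Rspo3.

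Known stellate and mesenchymal genes were lower at E13.5 but not at E14.5. Their medians were -0.52 at E13.5 and -0.01 at E14.5 over 16 genes, and none was called in both livers. Desmin (Des) stood at 8.80 against 13.9 CPM at E13.5 and 4.24 against 5.68 CPM at E14.5, and Col1a2, a chain of type I collagen, at 213 against 322 CPM at E13.5 and 124 against 76.8 CPM at E14.5. In the cross 13 of 21 stellate genes, 5 of 11 mesothelial genes and 6 of 11 genes of tissues beside the liver passed lower. Over all genes 3.59% passed lower. Among inner spots none of the 17 stellate, 5 mesothelial and 6 beside-liver genes tested passed lower, and none of all 10800 genes did. The mesothelial Wt1 had log2 -1.41 ± 0.221 (SE, n = 4, adjusted p = 0.00442) and the neuronal Stmn2 -3.26 ± 0.429 (SE, n = 4, adjusted p = 0.00150) over all liver spots. The summed level of genes of tissues beside the liver was 24.8 against 52.3 CPM at E13.5 and 19.5 against 22.6 CPM at E14.5. With only spots whose 6 neighbours were all in tissue, 112 genes were called higher and 2 lower in the purchased livers.

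Only 10 genes passed 1.5-fold in opposite directions, all lower in rich spots at E13.5 and higher at E14.5, and 0 the other way. They were Igfbp2, Ackr3, Lhfp, Auts2, Col1a2, Rerg, Ctxn1, Ncam1, Plod2 and Mfap4. Igfbp2, a growth factor binding protein, stood at 5.86 against 10.8 CPM at E13.5 and 6.70 against 4.04 CPM at E14.5, and the cell adhesion gene Ncam1 at 6.98 against 20.9 CPM at E13.5 and 5.16 against 3.28 CPM at E14.5. Mfap4, a protein of elastic fibres, stood at 11.6 against 24.4 CPM at E13.5 and 8.48 against 3.72 CPM at E14.5. Collagen, Mfap4 and Ncam1 are made by mesenchymal cells, and stage and embryo cannot be told apart with 1 section each.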

How the data were processed

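Formalin-fixed fetal liver sections had been profiled with 10x Genomics Visium, 1 library per section. The authors deposited the UMI counts of each gene in each spot as raw values, not normalized, together with spot positions. Per the labels, purchased sections were processed with Cell Ranger 4 (32589 features, on and off tissue) and cross sections with spaceranger 4.0.1 (19465 features, in-tissue spots), against mm10, so the 2 sets were never tested against each other. Section thickness differs between the labels and the methods of the study.

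In-tissue spots with at least 1000 genes were ordered by the 10-gene share and counts were summed per class and section (Python 3.11.15, pandas 2.3.3, numpy 2.4.6). Fold intervals are 95% Clopper-Pearson intervals from scipy 1.17.1 and cover counting error only. In the cross, edgeR 4.0.16 in R 4.3.3 (limma 3.58.1; filterByExpr, TMM factors, glmQLFit, section as block, 3 residual degrees of freedom) was the main test, with DESeq2 1.42.0 tried in its place. Adjusted p-values follow Benjamini and Hochberg, with 0.05 as threshold. The sections come from separate embryos. The block pairs the 2 classes of 1 section, so the pairing comes from the design. Scripts were tested on simulated data. Depth is given as UMIs per class and spot.

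Named genes were the 15 with the largest smaller fold in each direction, up to 4 called members per gene list and direction, a fixed set of liver and blood genes, and genes past the fold in opposite directions. Others (Pros1, Cps1, Fbp1, Acaca, Fasn, Slc10a1, Foxa3, Creb3l3, Cldn1, Krt7, Krt19, Ptn, Cxcl12, Igf1, Slc40a1, Marco, Fcna, Cd5l, Il18bp, Ctsb, Gp5, Lcn2, Camp, Elane, Ngp, Ltf, Wt1, Stmn2 and those of the closing section) were added after their values were seen. Some genes that fall under the rule are not reported here. The members and lists were chosen with earlier results of these data known. The erythroid, progenitor and macrophage lists are the first 20 genes of marker tables of the study from separate single-cell data. Alternatives covered UMI minimum, fold, scaling, class size, share definition, thinning to 5000 UMIs per purchased and 2000 per cross spot, tissue edge, liver minimum and left-out sections. Bone marrow, spleen and image files were not used here.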

Additional observations from a re-analysis of the deposited data

Results flagged for a closer look

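Megakaryocyte genes moved in opposite ways in the 2 litters of the cross: the mean of the median log2 changes of wild type 2 and knockout 2 exceeded that of wild type 4 and knockout 4 by 2.15, a difference that was not tested. Litter, depth and the amount of non-liver tissue in the section cannot be told apart here, since both sections of litter 4 were deeper and held fewer liver spots (240 of 806 passing spots in wild type 4 and 366 of 589 in knockout 4, against 2190 of 2320 and 2073 of 2147 in litter 2).

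The 10 genes past 1.5-fold in opposite directions were picked out because the purchased livers disagreed, and the differences were not tested. The log2 change at E14.5 exceeded that at E13.5 by 1.61 for Igfbp2, 2.52 for Ackr3, 1.54 for Lhfp, 1.20 for Auts2, 1.28 for Col1a2, 1.39 for Rerg, 1.43 for Ctxn1, 2.24 for Ncam1, 1.65 for Plod2 and 2.26 for Mfap4.

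Off-tissue spots, which no comparison used, held 252806 UMIs of the 10 hepatocyte genes at E13.5 and 611898 at E14.5, far above the limit of 3 that a count of 0 allows. Spots next to tissue had a median of 24826 UMIs at E13.5 (149 spots) and 16263 at E14.5 (267 spots), and spots farther away had 1494 and 2449.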

How the results depend on the processing

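In the purchased livers, the counts of genes higher and lower (120 and 17) became 198 and 62 at a minimum of 30 UMIs, 49 and 0 at 500 UMIs, 694 and 651 with no minimum beyond 1 UMI, 31 and 1 at 2-fold, 488 and 0 per spot, 17 and 4 after thinning (1860 genes tested), and 8 and 3 when each spot's share was taken relative to its adjacent spots. The lower count alone became 11 with TMM factors (148 higher), 3 with the top and bottom 10% of spots (140 higher), 26 with hemoglobin left out of the share (103 higher), and 2 among spots with 6 in-tissue neighbours (112 higher). Of the 120 higher genes, 120 were again called with TMM factors, 80 with 10% classes, 94 with 6 in-tissue neighbours and 3 relative to adjacent spots, where the mean log2 changes of Tnfrsf19 (0.52), Tmem184c (0.17), Gja1 (0.078) and Itga3 (0.030) changed sign. In that setting the 10 genes took 2.49% against 1.68% of UMIs at E13.5 and 3.79% against 2.91% at E14.5.

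In the cross, 436 and 427 became 269 and 29 with liver spots at 1%, 169 and 0 with inner liver spots (chosen after seeing the data), 221 and 76 after thinning, 224 and 975 with no scaling factor, and 0 and 0 with no replicate block, where the genes of the purchased livers that passed fell from 94 to 0. The lower count became 242 with DESeq2 and 925 with all in-tissue spots, where 50 of the purchased genes passed. Leaving out 1 section gave 244 to 416 higher and 181 to 585 lower, with 81 to 92 of the purchased genes. The counts were 244 and 380 without knockout 2, 278 and 181 without knockout 4, and 255 and 187 without wild type 4. Lhx2 changed sign with all in-tissue spots (1.504). With inner liver spots so did Lhx2 (0.0040), Foxf1 (0.23), Eml1 (0.050), Gja1 (0.083), Hbb-bh1 (-0.19), Igfbp2 (1.79), Col1a2 (0.039), Ctxn1 (0.069), Ncam1 (0.10) and Mfap4 (0.19). The cause of these shifts was not tested.

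With 1 section per stage, stage and embryo cannot be told apart. Depth limits calls to genes with at least 100 UMIs, and genes below it were not tested rather than level.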

Other observations

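In the cross, the genes with the smallest adjusted p included genes outside the lists. Tff3, a trefoil peptide of mucosal surfaces, was higher in rich spots by log2 2.43 ± 0.164 (SE, n = 4, edgeR adjusted p = 5.03e-05), and Hsd17b13, a lipid droplet enzyme of hepatocytes, by 2.31 ± 0.188 (adjusted p = 1.15e-04). Lower genes included the matrix genes Col6a2, at -1.62 ± 0.0998 (adjusted p = 3.52e-05), and Fbln2, at -1.79 ± 0.139 (adjusted p = 9.98e-05). Sulf1, an enzyme that trims heparan sulfate outside the cell, stood at -2.64 ± 0.211 (adjusted p = 1.01e-04). These are values over all liver spots. Among inner liver spots 0 of 10800 genes passed lower, and with liver spots at 1% 29 did.

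Other blood and vessel lists gave no called gene in the purchased livers. The median log2 change at E13.5 and E14.5 was -0.33 and 0.05 for 10 stem and progenitor genes, -0.005 and 0.007 for 18 genes of sinusoidal endothelium, 0.03 and -0.01 for 12 heme synthesis genes, 0.02 and -0.04 for 14 erythroid transcription factors, 0.09 and 0.07 for 7 globins, -0.21 and 0.04 for 18 genes of other macrophages, and -0.02 and 0.04 for 17 genes of dead-cell and nucleus clearance. In the cross, 1 of 19 genes of other macrophages (Emb), 1 of 21 endothelial genes (Gpr182), 1 of 8 globins (Hbb-bh1), 2 of 12 heme synthesis genes (Ppox and Alas2), 1 of 13 erythroid transcription factors (Foxo3) and 1 of 19 clearance genes (Vcam1) passed higher, and 0 of 11 stem and progenitor genes. Over all genes tested in the cross, 3.66% passed higher, so a single gene of a list this size stands near that share. Among inner liver spots none of these passed. Mast cell and lymphoid lists had 1 tested gene each.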
